A study of Mus musculus with 15 samples.

Results

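The genes described are 7 leukocyte adhesion molecules of endothelium, *Sele*, *Selp*, *Icam1*, *Icam2*, *Vcam1*, *Madcam1* and *Cd99l2*, taken by symbol from a table of 53465 genes. Every one of the 7 passed the filter on low values, set at 5 normalized counts on average across the libraries and passed by 25549 genes. Transcripts were measured by RNA sequencing in 15 libraries, 5 from each of 3 sorted cell populations of tumors raised from B16-F0, a melanoma line of mouse origin. The hosts were CAG-GFP mice of either sex, 8 to 14 weeks of age, and tumors were taken on day 15 after injection of the melanoma cells. All 3 populations were GFP positive, depleted of cells with hematopoietic lineage markers, and positive for CD34. The endovascular progenitors (EVP) had low CD31 and low VEGFR2 at the surface, the transit amplifying cells (TA) intermediate CD31 and low VEGFR2, and the definitive differentiated cells (D) high levels of both. The CAG promoter is active in cells of every type, so that GFP marked cells of the host rather than endothelium. In other mice, with cells labeled through *Cdh5*, the paper reports the label in most lineage-negative, CD34-positive tumor cells. CD31 is the product of *Pecam1* and VEGFR2 that of *Kdr*, so that both genes were part of the sort. Whether libraries came from single or pooled animals is not given in the sources used here, and p-values then measure only the spread between these libraries.

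Leukocytes leave the blood in steps. Selectins on endothelium, E-selectin (*Sele*) and P-selectin (*Selp*), catch sugar chains on passing leukocytes, which then roll along the vessel wall. Members of the immunoglobulin family (*Icam1*, *Icam2*, *Vcam1* and the mucosal addressin *Madcam1*) bind integrins on the leukocyte and arrest it, and CD99-like molecules such as that encoded by *Cd99l2* act in the passage between endothelial cells. In most vessels *Icam2* is made constitutively, whereas *Sele*, *Vcam1* and *Icam1* are known for their induction by inflammatory cytokines, and P-selectin is stored in Weibel-Palade bodies of endothelial cells and in platelet granules.

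The libraries held 5394356 to 26513073 reads counted on genes, with a median of 19049194. The detection limit was set at 3 reads, or 1.81 to 10.5 normalized counts depending on the library, which covers counting error only because the reads carry no molecular identifiers. EVP replicate 1 had the fewest reads and a read on 74.0% of the genes, against 40.1% to 67.2% in the other libraries. Replicate 1 of TA (9692677 reads, 62.2% of genes) and of D (12456809 reads, 67.2%) went the same way. Each had the fewest reads and the most genes with a read in its population. The 12 pan-endothelial markers summed to between 3413 and 7477 normalized counts in EVP, 11531 and 91885 in TA, and 127565 and 221402 in D. Endothelial markers were thus abundant in D, and 11 of the 12 were called higher in D than in EVP (limma, adjusted p under 0.05). The largest drops were those of *Cdh5* (VE-cadherin), at 72.3 ± 67.9 (SD, n = 5) in EVP against 9818 ± 2251 in D, and *Cldn5*, at 37.7 ± 32.5 against 6270 ± 2684. *Eng* measured 1519 ± 572 in EVP against 21840 ± 6888 in D. *Tek* was not called (limma adjusted p = 0.322), at 1578 ± 747 in EVP, 583.0 ± 325 in TA and 2379 ± 681 in D. In contrast, the 10 fibroblast markers summed to between 844125 and 1501650 in EVP, 192001 and 610205 in TA, and 1029 and 4128 in D. In bulk libraries fewer cells of a type and less RNA per cell cannot be told apart, which holds for every difference given here.

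The members followed 3 patterns. *Icam2*, *Sele*, *Selp* and *Madcam1* were called higher in D than in EVP, *Vcam1* was called higher in EVP than in D, and *Icam1* and *Cd99l2* did not pass the test in any comparison. Between EVP and D, 5 of the 7 members passed (limma, adjusted p under 0.05), where 19.0% of all tested genes passed. One of them, *Madcam1*, met the filter on low values through D alone, so that its call is not read against this share, and 4 of the other 6 passed. Of these 4, 3 were higher in D and 1 in EVP, while 7.46% of all genes were higher in D and 11.6% in EVP. Between TA and D, 4 members passed (*Sele*, *Selp*, *Icam2* and *Vcam1*), against 12.5% of all genes. Here 3 were higher in D, against 4.31%, and *Vcam1* was higher in TA, against 8.21%. Between EVP and TA only *Icam2* passed, against 3.50% of all genes. It was higher in TA, as were 1.94% of genes, while 1.56% of genes were higher in EVP. The median log2 difference over all tested genes was 0.46 for EVP minus D, 0.09 for EVP minus TA and 0.24 for TA minus D.

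**Figure D1:**
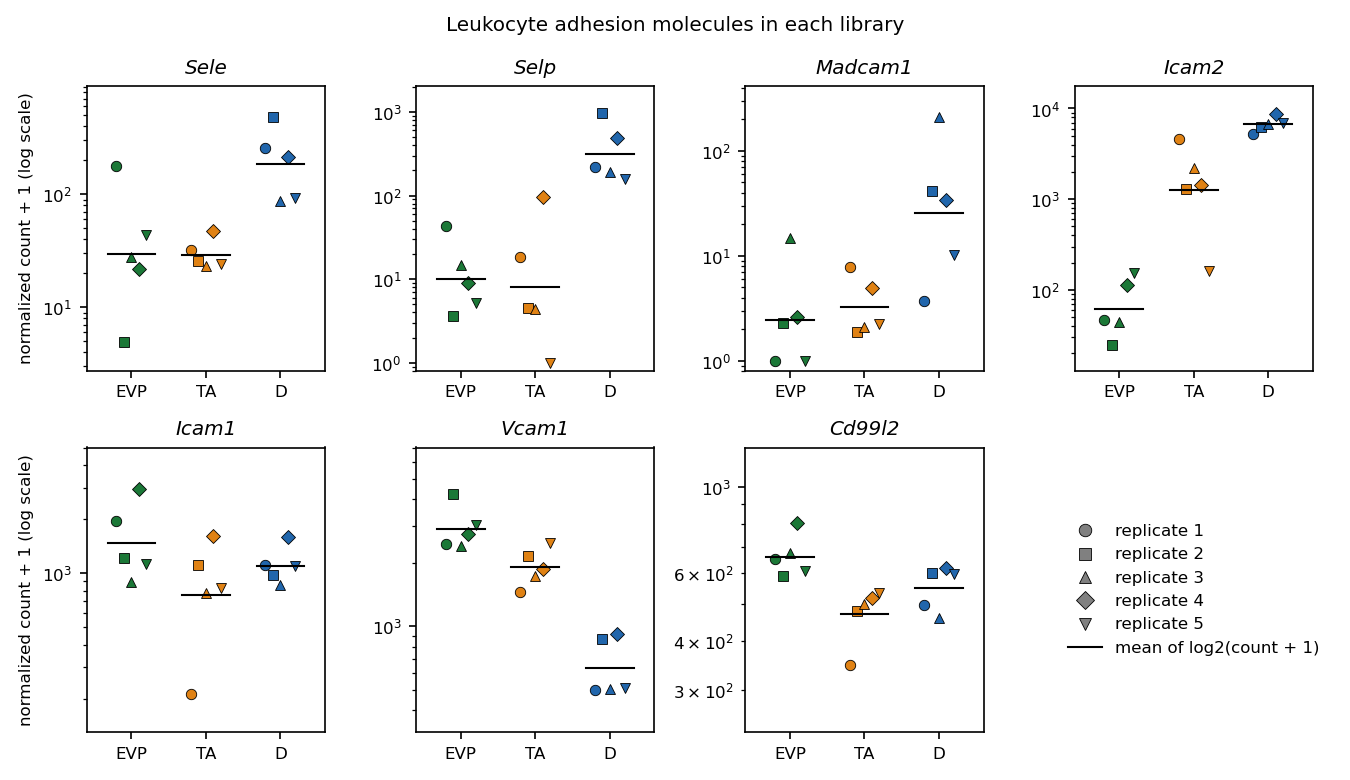
Normalized count plus 1 on a log axis for each of the 7 genes, with 1 symbol per library in EVP, TA and D and a line at the mean of the log2 values. *Icam2* rose from EVP through TA to D without overlap, the *Sele*, *Selp* and *Madcam1* levels of TA lay among or beside those of EVP, and the *Vcam1* levels of D, 497.0 to 921.0, lay below those of both other populations.

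*Icam2*, the constitutive ligand of the leukocyte integrin LFA-1, showed the largest difference of the 7. The gene lies at chr11:106377656-106388075 (GRCm38, minus strand, 7 merged exons). In EVP replicates 1 to 5 it measured 45.6, 23.5, 43.4, 113.5 and 152.8 normalized counts. In TA it measured 4652, 1294, 2202, 1432 and 162.5, and in D 5229, 6277, 6683, 8790 and 6901. The populations did not overlap in any of the 3 comparisons, although TA replicate 5 lay just above the highest EVP library and TA replicate 1 just below the lowest D library. The mean was 89.4-fold higher in D than in EVP (log2 difference EVP minus D -6.76, SE 0.66, limma adjusted p = 8.0e-07). It was 25.7-fold higher in TA than in EVP (log2 difference -4.35, adjusted p = 0.00243) and 3.48-fold higher in D than in TA (log2 difference TA minus D -2.41, adjusted p = 0.0220, limma). On the log2 scale, with EVP at 0 and D at 1, the TA mean stood at 0.64, with single TA libraries from 0.21 to 0.92. Without TA replicate 1 the mean was 16.8-fold higher in TA than in EVP and 5.32-fold higher in D than in TA, and without TA replicate 5 the log2 difference TA minus D was -1.68 (limma adjusted p = 0.0279). The call between TA and D was lost without D replicate 4 (log2 difference -2.31, limma adjusted p = 0.0567), under quantile normalization (-2.32, adjusted p = 0.119) and in edgeR (-1.89, adjusted p = 0.0668). The call between EVP and TA was lost when replicate 1 of every population was left out (-3.77, limma adjusted p = 0.0598).

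Relative to *Pecam1* of the same library, *Icam2* stayed within a narrow range. Its normalized count was a median of 24.9% of that of *Pecam1* in EVP (18.75% to 52.2%), 31.8% in TA (28.3% to 43.6%) and 27.3% in D (24.0% to 32.8%), and the 3 ranges overlapped. *Pecam1* itself measured 260.1 ± 204 in EVP, 6242 ± 5780 in TA and 24244 ± 5169 in D, so that both genes changed together over the populations. The other members did not keep such a share. *Vcam1* stood at a median of 1255% of *Pecam1* in EVP, 41.3% in TA and 2.31% in D, and *Icam1* at 873.4%, 35.2% and 4.94%. *Sele* stood at 9.56%, 0.78% and 0.67%, and *Selp* at 3.68%, 0.11% and 0.99%. *Madcam1* stood at 0.74%, 0.045% and 0.10%, and *Cd99l2* at 370.2%, 11.4% and 2.25%. The EVP shares of *Selp* and *Madcam1* rest on at most 17 reads per library, with *Madcam1* at or under 3 reads in 4 EVP libraries. *Selp* ran from 0.68% to 18.75% in EVP and 0.59% to 5.04% in D, and *Madcam1* from 0 to 11.6% and 0.013% to 0.97%, so that the ranges overlapped. Since *Pecam1* encodes the protein used in the sort, these shares are given as a description with no test.

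**Figure D2:**
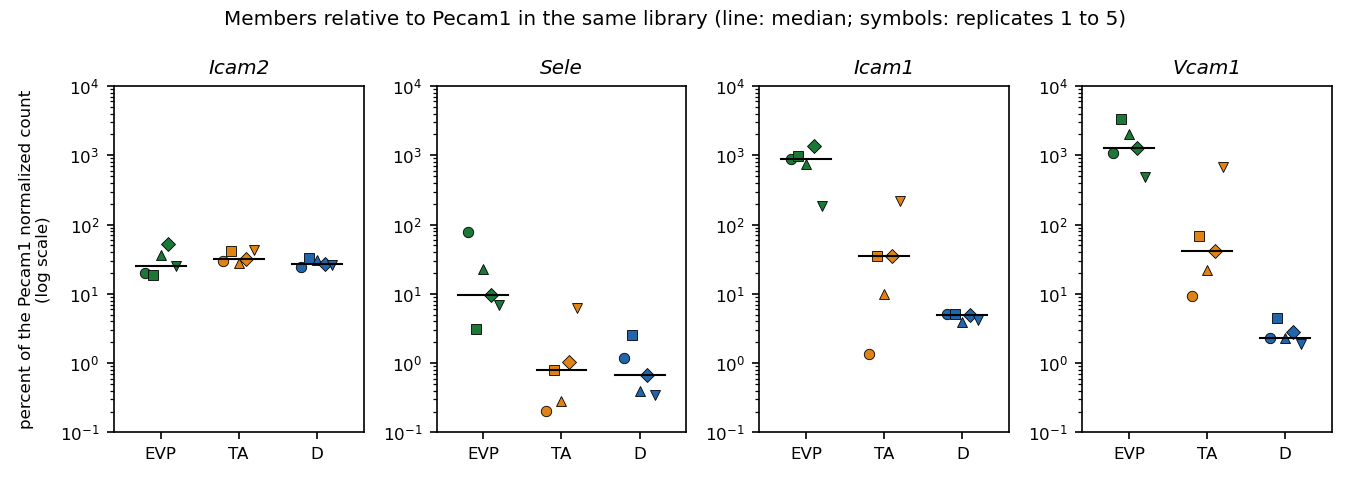
Normalized count of *Icam2*, *Sele*, *Icam1* and *Vcam1* as percent of the *Pecam1* count in the same library, on a log axis, with 1 symbol per library and a line at the median. *Icam2* stays between 18.75% and 52.2% in all 15 libraries, whereas *Vcam1* runs from 3359% in an EVP library to 1.92% in a D library.

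Both endothelial selectins were higher in D than in EVP and TA, and neither passed the test between EVP and TA. *Sele* lies at chr1:164048234-164057677 and *Selp* at chr1:164115264-164150026, both on the plus strand and 57586 bases apart (GRCm38, 14 and 17 merged exons). *Sele* measured 175.6, 3.92, 27.0, 20.8 and 42.9 normalized counts in EVP replicates 1 to 5. In TA it measured 31.0, 24.6, 22.3, 46.2 and 23.0, and in D 256.7, 481.7, 86.0, 214.9 and 91.3. Every D library exceeded every TA library, but EVP replicate 1 lay above the D replicates 3 and 5, so that D was higher in 23 of 25 pairs of EVP and D libraries. The mean was 4.19-fold higher in D than in EVP (log2 difference EVP minus D -2.64, SE 0.73, limma adjusted p = 0.0160) and 7.68-fold higher in D than in TA (TA minus D -2.66, limma adjusted p = 0.0229). Without EVP replicate 1 the first difference was -3.28 (limma adjusted p = 0.00157), with a mean 9.56-fold higher in D. It did not pass without D replicate 2 (-2.29, limma adjusted p = 0.0546) or in edgeR (-2.22, adjusted p = 0.0617). The difference between TA and D did not pass without D replicate 2 (-2.31, limma adjusted p = 0.0749) or without D replicate 4 (-2.60, limma adjusted p = 0.0565). Between EVP and TA the log2 difference was 0.02, with a 95% interval from -1.53 to 1.57 (limma adjusted p = 0.9995).

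*Selp* measured 42.1, 2.61, 13.9, 7.99 and 4.15 in EVP replicates 1 to 5. In TA it measured 17.2, 3.52, 3.35, 94.0 and 0, and in D 215.5, 962.5, 188.4, 488.3 and 157.1. All 5 D libraries lay above all libraries of EVP and TA, where the lowest values were within 3 reads in 1 EVP and 2 TA libraries. The mean was 28.4-fold higher in D than in EVP (log2 difference EVP minus D -4.95, SE 1.01, limma adjusted p = 0.00155) and 17.0-fold higher in D than in TA (TA minus D -5.28, limma adjusted p = 0.00187). Both differences passed in all 27 alternatives, but the folds rested on single libraries. Between EVP and D the mean was 56.2-fold higher in D without EVP replicate 1 and 18.5-fold higher without D replicate 2. Between TA and D it was 66.8-fold higher in D without TA replicate 4 and 11.1-fold higher without D replicate 2. Between EVP and TA the log2 difference was 0.33, with a 95% interval from -1.80 to 2.47 (limma adjusted p = 0.9755). D replicate 2 was the highest D library for both selectins.

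P-selectin is also a platelet protein, so platelet and megakaryocyte markers were set beside *Selp*. Of 10 such markers, *Ppbp* and *Pf4* were higher in D than in EVP, against 7.46% of all genes, and 8 were not called. Their sum ranged from 449.9 to 716.3 normalized counts in EVP, 773.4 to 3518 in TA and 559.6 to 989.9 in D. *Pf4* measured 216.4 ± 166 in EVP, 1003 ± 357 in TA and 421.4 ± 114 in D, and was higher in TA than in D (log2 difference 1.22, limma adjusted p = 0.0490), the only call among the 10 between these populations. *Pf4* (log2 difference EVP minus TA -2.42, limma adjusted p = 0.00333) and *Ppbp* (-4.25, limma adjusted p = 0.0172) were also higher in TA than in EVP, against 1.94% of all genes, and 8 were not called. The part of platelet RNA in the *Selp* values was not tested.

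*Madcam1*, the ligand of the integrin alpha4beta7 and an addressin of gut vessels, was scarce. It lies at chr10:79664559-79668537 (GRCm38, plus strand, 5 merged exons). It measured 0, 1.31, 13.9, 1.60 and 0 normalized counts in EVP replicates 1 to 5 and 6.89, 0.88, 1.12, 3.92 and 1.25 in TA. In D it measured 2.75, 40.8, 210.3, 33.1 and 9.07. The level was at or under 3 reads in 4 EVP, 3 TA and 1 D libraries, and the gene passed the filter through D alone. D replicate 3 held most of the D signal, whereas that library had the lowest *Sele* level of D. The log2 difference EVP minus D was -3.39 (SE 1.06, limma adjusted p = 0.0313), with D higher in 23 of 25 pairs of libraries. This call was lost in 10 of 27 alternatives, among them edgeR (-4.06, adjusted p = 0.0731) and leaving out any of EVP replicates 1, 2, 4 and 5 or D replicates 2, 3 and 4, with limma adjusted p from 0.0569 to 0.104. The TA minus D difference had a 95% interval from -5.24 to -0.76 (limma adjusted p = 0.0777). It passed in 5 of 27 alternatives, among them leaving out D replicate 1 (-3.70, limma adjusted p = 0.0220) and DESeq2 (-4.45, adjusted p = 0.00444).

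The promoters of *Sele*, *Selp* and *Madcam1* are shown because these members were called higher in D than in EVP while TA lay near EVP. For *Madcam1*, 4 EVP and 3 TA libraries were at or under 3 reads, so that both populations lay near the detection limit. Each stretch is 300 bases from RefSeq (GRCm38.p6), from 250 bases before the transcription start to 50 bases of the transcript, and all are on the plus strand. Sele is chr1:164047984-164048283, Selp chr1:164115014-164115313 and Madcam1 chr10:79664309-79664608. Capitals mark matches on either strand to the kappaB pattern GGGNNNNNCC and to the ATF/CRE-like pattern TGACNTCA. The first is a loose form of the binding motif of NF-kappaB, and other forms were not sought.
Sele: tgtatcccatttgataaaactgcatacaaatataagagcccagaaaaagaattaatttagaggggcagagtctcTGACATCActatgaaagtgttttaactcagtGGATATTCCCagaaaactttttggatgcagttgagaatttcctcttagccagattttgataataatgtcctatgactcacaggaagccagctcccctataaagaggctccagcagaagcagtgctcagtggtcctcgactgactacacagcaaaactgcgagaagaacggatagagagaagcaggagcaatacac
Selp: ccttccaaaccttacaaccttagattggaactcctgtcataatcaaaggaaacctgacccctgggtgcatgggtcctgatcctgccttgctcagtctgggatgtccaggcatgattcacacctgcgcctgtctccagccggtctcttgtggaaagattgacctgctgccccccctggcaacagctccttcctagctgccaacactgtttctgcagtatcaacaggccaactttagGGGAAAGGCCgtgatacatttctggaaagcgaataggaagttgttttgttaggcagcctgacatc
Madcam1: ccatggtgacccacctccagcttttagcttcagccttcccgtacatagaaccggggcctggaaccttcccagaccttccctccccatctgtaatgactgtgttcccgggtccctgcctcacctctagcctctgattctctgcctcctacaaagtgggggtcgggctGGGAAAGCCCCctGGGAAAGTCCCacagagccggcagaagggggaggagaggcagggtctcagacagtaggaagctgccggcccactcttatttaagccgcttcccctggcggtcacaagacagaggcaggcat
The *Sele* promoter held the kappaB pattern on the minus strand, starting 145 bases before the transcription start, and TGACATCA starting 176 bases before it. The *Selp* promoter held the kappaB pattern starting 15 bases before the start. The *Madcam1* promoter held overlapping kappaB matches in 2 blocks, which start 84 and 71 bases before it. A match is a description of the letters and not a site in use. The kappaB pattern was present in 50.8% of the 32851 RefSeq promoters of this length and TGACNTCA in 8.83%. In addition, *Icam1* held the kappaB pattern 120 bases before its start, and *Cd99l2* held no match. *Icam2* and *Vcam1* are named only. The pattern TATAAA was found in *Sele* (49 bases before the start) and *Icam1* (from base 14 of the transcript), against 13.6% of all promoters. The ETS core AGGAAGT was found in *Selp* (from base 20 of the transcript), against 9.35%. The letters AGATAA, a form of the GATA motif, were in none of the 5 members with a promoter in the table, against 11.2%. Other forms of that motif, such as the TGATAA in the *Sele* stretch above, were not sought. All patterns were sought on both strands, and only the kappaB matches of *Madcam1* overlapped each other.

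*Vcam1*, the ligand of the integrin alpha4beta1, was the only member called higher in EVP than in D. The gene lies at chr3:116109949-116129688 (GRCm38, minus strand, 10 merged exons). It measured 2440, 4213, 2403, 2728 and 3018 normalized counts in EVP replicates 1 to 5 and 1456, 2155, 1727, 1858 and 2485 in TA. In D it measured 497.0, 867.8, 501.0, 921.0 and 507.7. D lay below every library of the other populations, while EVP and TA overlapped, with EVP higher in 23 of 25 pairs. The mean was 4.49-fold higher in EVP than in D (log2 difference 2.19, SE 0.23, limma adjusted p = 1.4e-06) and 2.94-fold higher in TA than in D (log2 difference 1.59, adjusted p = 1.4e-04, limma). Between EVP and TA the log2 difference was 0.60, with a 95% interval from 0.13 to 1.08 (limma adjusted p = 0.180). Both calls held in all 27 alternatives. Among the D libraries, replicates 2 and 4 were the highest for *Vcam1*, and they were also among the 3 highest for *Sele*, *Selp* and *Madcam1*.

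Fibroblast markers moved in the same direction as *Vcam1*. All 10 were higher in EVP than in D and all 10 higher in TA than in D, and 5 were higher in EVP than in TA. *Pdgfra* measured 7847 ± 2710 in EVP, 1935 ± 999 in TA and 23.0 ± 28.1 in D, and *Pi16*, *Lum* and *Dpt* measured 16.2 ± 17.3, 27.1 ± 23.8 and 29.8 ± 21.3 in D. The collagen genes of the list were higher there, with *Col1a1* at 897.0 ± 619, *Col3a1* at 881.8 ± 492 and *Col1a2* at 444.3 ± 328, and *Dcn* measured 182.3 ± 87.0. *Vcam1* measured 658.9 ± 216 in D. The part of fibroblast RNA in the *Vcam1* difference was not tested. The antisense gene *Gm43109* overlaps *Vcam1* and measured 26.4 in EVP, 0.63 in TA and 0.91 in D on average, and the sources used here do not state that strand was used in counting.

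*Icam1*, a cytokine-induced ligand of LFA-1 and Mac-1, was abundant in all 3 populations. The gene lies at chr9:21015985-21028817 (GRCm38, plus strand, 7 merged exons). It measured 1963, 1211, 894.2, 2936 and 1124 normalized counts in EVP replicates 1 to 5 and 210.3, 1106, 776.8, 1604 and 827.6 in TA. In D it measured 1104, 981.3, 863.7, 1591 and 1098. The populations overlapped in every comparison. The log2 difference EVP minus D was 0.42, with a 95% interval from -0.49 to 1.33 (limma adjusted p = 0.640), and TA minus D was -0.55, with an interval from -1.46 to 0.36 (limma adjusted p = 0.525). EVP minus TA was 0.97, with an interval from 0.06 to 1.88 (limma adjusted p = 0.279). TA replicate 1 had the lowest value of all libraries, and without it the last difference was 0.51 (limma adjusted p = 0.508). A mean up to 2.51-fold higher in EVP than in D lies within the interval, so that equal levels were not shown. The neighbors of *Icam1* on the same chromosome, *Icam4* and *Icam5*, were at 0 in all libraries and at 12.4 in EVP, 8.37 in TA and 0.27 in D, respectively.

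*Cd99l2*, which acts late in transmigration, was the most even member. The gene lies at chrX:71420060-71492849 (GRCm38, minus strand, 11 merged exons). It measured 649.6, 586.6, 673.3, 804.8 and 604.3 normalized counts in EVP replicates 1 to 5 and 346.4, 476.5, 496.7, 514.8 and 531.2 in TA. In D it measured 494.2, 599.2, 457.3, 616.0 and 594.7. All EVP libraries lay above all TA libraries, with a mean 1.40-fold higher, but the test did not pass (log2 difference 0.49, 95% interval from 0.11 to 0.88, limma adjusted p = 0.170). DESeq2 called this difference (0.49, adjusted p = 0.0194). EVP minus D was 0.27, with an interval from -0.12 to 0.65 (limma adjusted p = 0.413), and TA minus D was -0.23, with an interval from -0.61 to 0.15 (limma adjusted p = 0.536).

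**Figure D3:**
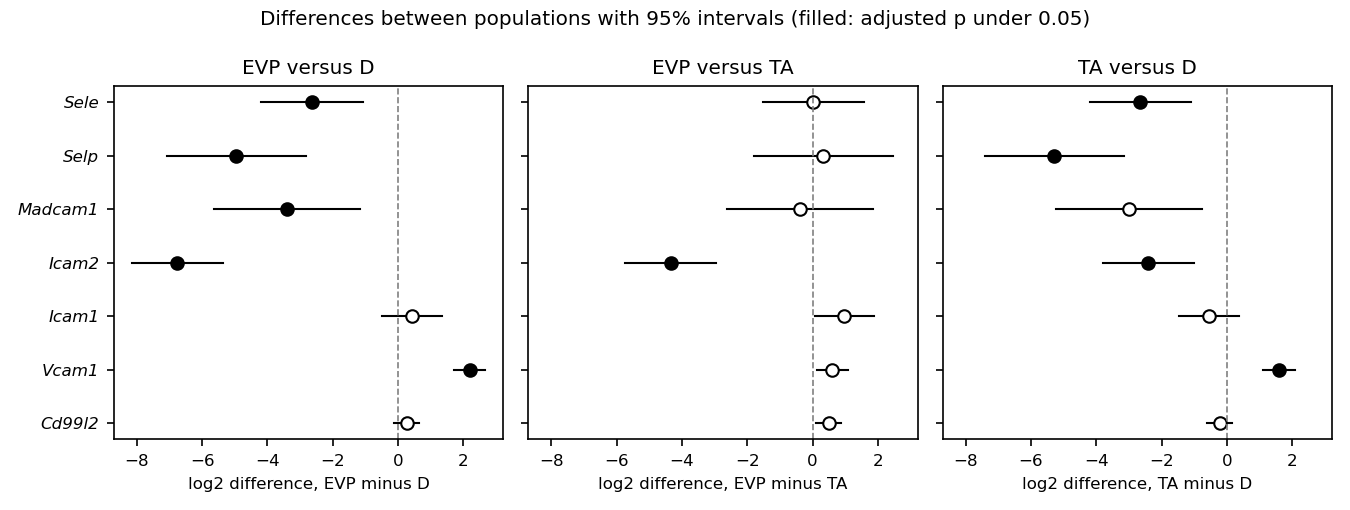
Log2 difference of each of the 7 genes in the 3 comparisons, with the first population minus the second on the x axis, points at the estimate and lines over the 95% interval, and filled points where the limma adjusted p is under 0.05. *Icam2* is filled in all 3 panels, *Vcam1* lies to the right of 0 against D, and the open points include all values of *Icam1* and *Cd99l2*.

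Counted by overlap instead of by the test, the libraries did not overlap for 3 members between EVP and D (*Selp*, *Icam2* and *Vcam1*), against 17.7% of all genes. They did not overlap for 4 members between TA and D (*Sele*, *Selp*, *Icam2* and *Vcam1*), against 9.25%, and for 2 between EVP and TA (*Icam2* and *Cd99l2*), against 4.29%. The comparisons share libraries and are not independent of each other. The position of TA on the scale from EVP at 0 to D at 1 differed among the called members, with 0.64 for *Icam2*, 0.28 for *Vcam1*, 0.12 for *Madcam1*, -0.01 for *Sele* and -0.07 for *Selp*. That of *Madcam1* rests on EVP and TA libraries that were mostly at or under 3 reads.

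Which member was most abundant changed between the populations. Expressed as TPM, the share of reads per unit of merged exon length, *Icam2* made up 84.4% ± 3.22 of the summed TPM of the 7 members in D, 55.2% ± 28.3 in TA and 4.42% ± 3.28 in EVP (SD, n = 5). In EVP, *Icam1* and *Vcam1* were the main members, with 39.3% ± 11.3 and 38.1% ± 11.3 of the sum, which did not differ beyond their spread. In D their shares were 6.16% ± 1.11 and 1.75% ± 0.41. The level of *Icam2* in D was 651.2 ± 201 TPM, at the 99.2 percentile of the tested genes. In contrast, *Madcam1* in D was 7.96 ± 11.6 TPM. The order of some members depended on the length used, which for *Vcam1* was 8870 bases of merged exons or 3469 of the longest principal transcript. Per kb of merged exons, D ranked *Icam2*, *Icam1*, *Cd99l2*, *Selp*, *Sele*, *Vcam1* and *Madcam1*, and the means of *Selp* (91.2 ± 77.0), *Sele* (77.6 ± 55.4) and *Vcam1* (74.3 ± 24.3 normalized counts per kb) were within their spread. Per kb of the longest principal transcript *Vcam1* ranked above *Cd99l2* in D, with 189.9 ± 62.2. In EVP, *Icam1* (372.8 ± 191) ranked above *Vcam1* (333.7 ± 83.8) per kb of merged exons. Per kb of the longest principal transcript, *Vcam1* (853.3 ± 214) ranked above *Icam1* (641.2 ± 329). By either length these means were within their spread. Per kb, both lengths gave in EVP *Cd99l2*, *Icam2*, *Sele*, *Selp* and *Madcam1* in this order below *Icam1* and *Vcam1*. By TPM, *Madcam1* (0.44 ± 0.79) and *Selp* (0.43 ± 0.34) were within their spread in EVP.

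The genes with the most similar course over the 15 libraries were sought for each member, by the root mean square (RMS) difference of centered log2 values among 11301 or 11302 genes averaging 100 normalized counts or more. For *Icam2* they were *Gimap4* (RMS difference 0.22), *Egfl7* (0.34) and *Flt4* (0.37), which lay closer than any gene to *Selp* or *Sele*. For *Vcam1* they were *Wls* (0.29), *Emp3* (0.30) and the pseudogene *Cd63-ps* (0.31). *Selp* was nearest to *Lrg1* (1.33), *Clic5* (1.51) and *Prex2* (1.53), and *Sele* to *Smpdl3b* (0.89), *Lrp8* (0.98) and *Adarb1* (1.00). *Icam1* was nearest to *Tnfrsf1b*, a receptor of TNF (0.51), *Slc37a4* (0.51) and *Med16* (0.51). *Cd99l2* was nearest to *Add1* (0.18), *Ubtf* (0.18) and *Tex261* (0.19), and *Madcam1* to *Gm37033* (1.20), *Sat1* (1.25) and *Slc20a1* (1.26). The values are descriptions with no test, and they are larger for members with few reads. On the same log2 scale the SD of the member itself was 3.11 for *Icam2*, 2.99 for *Selp*, 2.19 for *Madcam1* and 1.74 for *Sele*. It was 1.02 for *Vcam1*, 0.83 for *Icam1* and 0.28 for *Cd99l2*, so that an RMS difference does not mean the same likeness for each member.

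The counts of the pathway and marker lists between EVP and D stand beside 19.0% of all genes called, 7.46% higher in D and 11.6% higher in EVP. Those between TA and D stand beside 12.5%, with 4.31% higher in D and 8.21% higher in TA. Those between EVP and TA stand beside 3.50%, with 1.94% higher in TA and 1.56% higher in EVP. Among other adhesion and transmigration genes, more were higher in D than in EVP. Of 22 tested genes, 9 were higher in D (*Pecam1*, whose product was used in the sort, included), 3 in EVP and 10 were not called, with a median log2 difference EVP minus D of -0.84. The largest differences were those of *Podxl* (-8.21), a sialomucin, *Cdh5* (-7.54) and *Emcn* (-7.43), with limma adjusted p from 1.6e-06 to 1.4e-05, and that of *Pecam1* (-6.79), which is a description because of the sort. *Icam5*, *Aoc3* (vascular adhesion protein 1) and *Thy1* were the 3 genes higher in EVP. *Aoc3* measured 196.9 ± 59.6 in EVP, 167.7 ± 91.2 in TA and 7.62 ± 5.01 in D, and *Thy1* is also in the fibroblast list. Between TA and D, 11 of the 22 were higher in D and 3 in TA, and between EVP and TA 8 were higher in TA and none in EVP (limma).

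Enzymes that build selectin ligands on endothelium changed in both directions. Of 13 tested genes, 5 were higher in D, 2 in EVP and 6 were not called between EVP and D, with a median of -0.32. Those higher in D included *Chst1* and *Chst2*, sulfotransferases that act on selectin ligands, *B3gnt3*, which extends core 1 O-glycans, and *Tpst2*, a tyrosine sulfotransferase. *Chst1* measured 62.4 ± 19.7 in EVP, 279.4 ± 182 in TA and 604.2 ± 285 in D (log2 difference EVP minus D -3.20, limma adjusted p = 4.6e-05). *B3gnt3* measured 562.6 ± 99.1, 1475 ± 1027 and 5040 ± 563 (-3.17, limma adjusted p = 4.2e-07). *Chst2* differed by -2.99 and *Tpst2* by -2.03. *Tpst1* (1.57) and *B4galt1* (1.49) were the 2 genes higher in EVP, and *Fut7* and *Chst4*, which are typical of high endothelial venules, had means of at most 10.0 normalized counts in every population. Between EVP and TA, 4 were higher in TA and 2 in EVP, and between TA and D 3 were higher in D.

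Weibel-Palade body genes, whose products are stored or released with P-selectin, split evenly. Of 10 tested genes, 3 were higher in D, 3 in EVP and 4 were not called, with a median of -0.22. *Vwf*, which forms these bodies, measured 50.9 ± 45.1 in EVP, 177.9 ± 110 in TA and 804.6 ± 464 in D (log2 difference EVP minus D -4.14, limma adjusted p = 7.0e-05). *Angpt2* measured 564.2 ± 561, 14741 ± 12256 and 44463 ± 9284 (-6.89, limma adjusted p = 2.7e-07). In contrast, *Cd63* (2.22) and *Plat* (2.19) were higher in EVP, with *Cd63*, a tetraspanin of many cell types, at 19907 ± 3183 in EVP and 4311 ± 1017 in D. Between TA and D, 4 were higher in TA and 3 in D, and between EVP and TA 1 was higher on each side.

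Receptors and NF-kappaB genes through which *Sele*, *Vcam1* and *Icam1* are induced were called in 3 of 23 cases, a share near that of all genes. Of 23 tested genes, 20 were not called between EVP and D, 3 were higher in EVP and none in D, with a median of 0.20. *Il1r1*, the signaling receptor of IL-1, measured 2901 ± 520 in EVP, 1201 ± 531 in TA and 298.3 ± 104 in D (log2 difference EVP minus D 3.35, limma adjusted p = 2.7e-07), and it also passed in both other comparisons. The NF-kappaB inhibitors *Tnfaip3* (1.69, limma adjusted p = 0.00326) and *Nfkbia* (0.90, limma adjusted p = 0.0423), which are themselves targets of NF-kappaB, were the others. The TNF receptor *Tnfrsf1a* measured 2979 ± 898 in EVP, 2342 ± 341 in TA and 2663 ± 1109 in D. Between TA and D, 2 were higher in TA, and between EVP and TA 1 was higher in EVP.

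Genes of the docking structure, which tether ICAM-1 and VCAM-1 to actin, were higher in D in 5 of 11 cases, higher in EVP in 1 and not called in 5, with a median of -0.39. *Actn4* (-2.20), *Cav1* (-1.95), *Msn* (moesin, -1.81) and *Vasp* (-1.31) had the largest log2 differences EVP minus D. *Ezr* (ezrin) went the other way (1.11, limma adjusted p = 0.0123). Between TA and D, 6 were higher in D and 1 in TA, and between EVP and TA 1 was higher in TA.

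The partners on the leukocyte side were also read, since leukocytes were depleted in the sort. Of 11 tested ligands and integrins, 2 were higher in EVP than in D, 1 in D and 8 were not called, with a median of 1.29. *Itgb7*, which pairs into the receptor of MAdCAM-1, measured 468.5 ± 415 in EVP, 888.3 ± 935 in TA and 15.9 ± 14.3 in D (log2 difference EVP minus D 5.17, limma adjusted p = 6.5e-04). *Cd44* differed by 3.50, and *Itgb1*, which many cell types express, by -1.18. Between TA and D, 4 were higher in TA and 1 in D, and between EVP and TA none of the 11 passed (limma). Among 10 pan-leukocyte markers 1 (*Lcp1*) was higher in D than in EVP, against 7.46% of all genes, and 9 were not called. The median log2 difference of this list was 0.44 for EVP minus D, and 5 of its genes were higher in TA than in D, against 8.21%. Their summed levels were 1942 to 12536 in EVP, 9897 to 43809 in TA and 7348 to 12225 in D. Most of the D sum was *Lcp1*, at 7966 ± 1582 in D against 1350 ± 1237 in EVP. *Fcer1g* averaged 345.3 in EVP and 375.1 in D. Each remaining pan-leukocyte marker averaged less in D than in EVP, with no call, so that the sums mainly follow *Lcp1* in D. Of the lymphocyte markers, 2 of 10 (*Trac* and *Nkg7*) were higher in EVP than in D, against 11.6% of all genes. The lymphocyte markers summed to 156.8 to 852.8 in EVP, 205.1 to 4718 in TA and 39.3 to 328.3 in D. Of the macrophage markers, 2 of 9 (*Cx3cr1* and *Csf1r*) were higher in EVP than in D, against 11.6% of all genes, while the median of the list was -0.83. Between EVP and TA, 5 of them were higher in TA, against 1.94% of all genes. The macrophage markers summed to 2028 to 11868 in EVP, 7885 to 39980 in TA and 3878 to 12948 in D. The part of leukocyte RNA in these values was not tested.

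Markers of vessel beds were mostly higher in D together with the selectins. Of the venous markers, 4 of 6 were higher in D than in EVP (*Emcn*, *Vwf*, *Nrp2* and *Ephb4*), of the arterial markers 6 of 7 (with *Dll4*, *Sox17*, *Gja5* and *Hey1* the largest) and of the lymphatic markers 3 of 6, while *Pdpn* was higher in EVP. *Ackr1*, a marker of venules, measured 298.0 ± 151 in EVP, 62.6 ± 71.1 in TA and 244.7 ± 219 in D and did not pass (log2 difference EVP minus D 0.43, limma adjusted p = 0.845). Of the pan-endothelial markers 11 of 12 were higher in D, among them *Pecam1* and *Kdr*, whose products were used in the sort. Of the mural markers 4 of 10 were higher in EVP (*Pdgfrb* and *Cspg4* the largest) and 2 in D (*Abcc9* and *Kcnj8*). Of the melanoma markers 1 of 8 (*Mitf*) was higher in EVP than in D, against 11.6% of all genes. All 8 were higher in TA than in D, against 8.21%, with summed levels of 30759 to 70218 in EVP, 71716 to 182314 in TA and 19137 to 50322 in D.

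**Figure D4:**
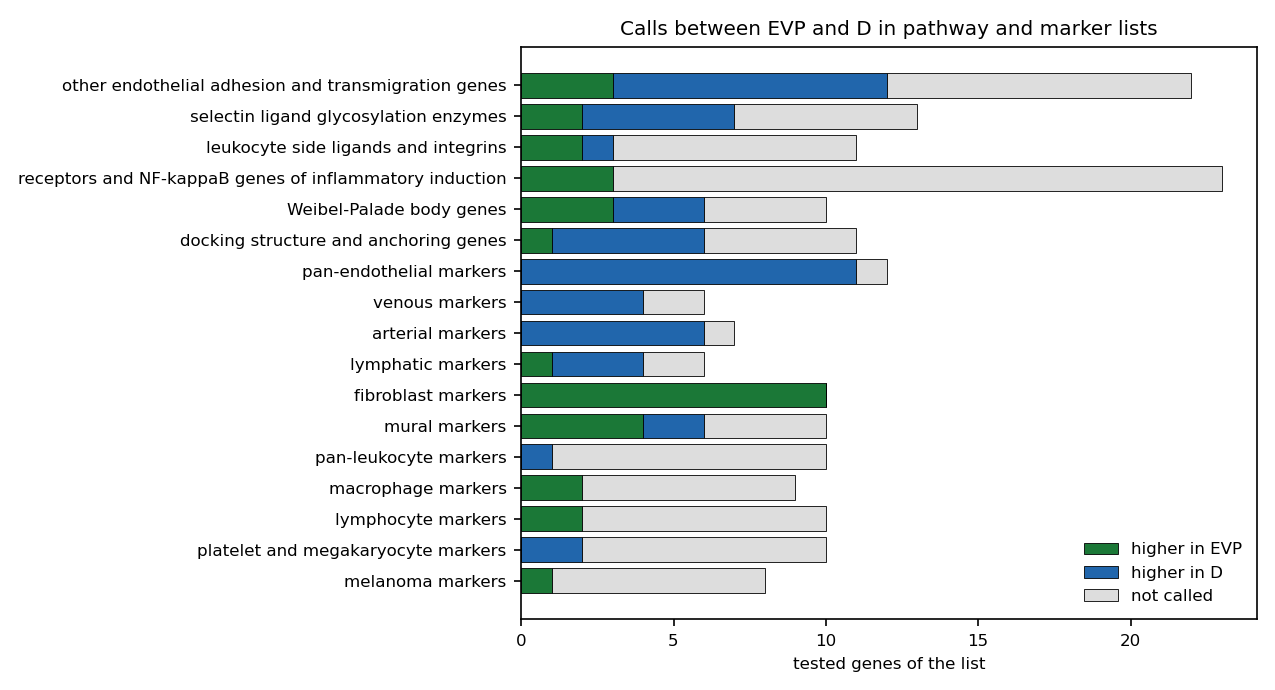
Number of tested genes in each pathway and marker list that were higher in EVP, higher in D or not called between EVP and D (limma, adjusted p under 0.05), as stacked bars that start at 0. All 10 fibroblast markers are higher in EVP, 11 of 12 pan-endothelial markers are higher in D, and 20 of 23 receptor and NF-kappaB genes are not called.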

How the data were processed

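RNA was measured in 15 libraries, 5 each of EVP, TA and D cells, grouped by the cell type that the labels name. Libraries were made by the authors by a Smart-Seq2 procedure with changes. They used STAR 2.5.3a for alignment to GRCm38, HTSeq for counting reads on genes and DESeq2 1.10.1 for normalization. The deposited values, called normalized counts here, are a signal in which each count was divided by the size factor of its library. Dividing each library by its smallest value above 0 gave whole reads for 100% of the values within 0.001 reads. The authors' own tables of fold changes and p-values were not used.

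Log2(normalized count + 1) of genes with a mean of at least 5 was compared with limma 3.58.1 in R 4.3.3 (trend, two-sided, 1 coefficient per population, Benjamini-Hochberg over all tested genes, threshold 0.05), which was tested on simulated data. Fold changes on this scale understate those of low genes, and folds in the text are ratios of means. Errors are SDs. The test called 4859 genes between EVP and D, 893 between EVP and TA, and 3199 between TA and D. Alternatives were pseudocounts of 0.5 and 8, no minimum mean or 20, other scalings, array weights, 2 populations only, a replicate block, edgeR 4.0.16 and DESeq2 1.42.0 on recovered reads, and libraries left out. Exon lengths came from GENCODE, which matched 99.8% of the genes, and promoters from RefSeq, which held 5 of the 7 members. Symbols carried by more than 1 gene were left out of lists, and *Cd99* and *Itgam* were not used here.

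Members and lists were chosen with earlier results of these data known. From each list at most 4 genes were named, those past the threshold between EVP and D with the largest log2 difference, and for each member the 3 most similar genes. Further genes (*Icam4*, *Icam5*, *Col1a1*, *Col1a2*, *Col3a1*, *Dcn*, *Aoc3*, *Thy1*, *Tpst1*, *B4galt1*, *Fut7*, *Chst4*, *Ezr*, *Tnfrsf1a*, *Ackr1*, *Gm43109*, *Tek*, *Eng*) were named after their values were seen. Values of 1 listed gene are left out here. Figures were drawn with matplotlib 3.10.9.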

Additional observations from a re-analysis of the deposited data

Results flagged for a closer look

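In 5 of 21 groups of 5 libraries 1 library lay far from the others, a gap above Dixon's critical value of 0.71 of the group's range. This value is passed in about 1 of 20 groups only where values are normally distributed. The counts were used without logs, and those of *Selp* and *Madcam1* reach 0, so that the number of flags is not read against that rate. *Sele* in EVP replicate 1 measured 175.6 normalized counts against 3.92 to 42.9 in the other EVP libraries. *Selp* in the same library measured 42.1 against 2.61 to 13.9, and this library had the fewest reads of all. *Selp* in TA replicate 4 measured 94.0 against 0 to 17.2, and without it the log2 difference TA minus D was -6.17 (limma adjusted p = 2.6e-04). *Madcam1* in EVP replicate 3 measured 13.9 against 0 to 1.60. *Madcam1* in D replicate 3 measured 210.3 against 2.75 to 40.8, and without it the call between EVP and D was lost.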

How the results depend on the processing

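Of 567 values of the 7 members under the alternatives, 524 kept their direction and their side of the threshold, 18 lost the call, 6 gained one and 19 changed sign. Every change of sign was between EVP and TA, in *Sele*, *Selp* or *Madcam1*, where no call was made. *Sele* there (0.02) became -0.0019 with a pseudocount of 0.5, -0.16 with the same total and -0.40 with array weights. *Selp* (0.33) became -0.0499 with a pseudocount of 8, -0.21 with array weights, -0.998 in edgeR and -0.81 in DESeq2. *Madcam1* (-0.39) became 0.0611 under quantile normalization, 0.37 in edgeR and 0.40 in DESeq2. With libraries left out, *Sele* ranged from -0.62 to 0.67 (-0.59 without replicate 1 of every population), *Selp* from -0.42 to 1.22 and *Madcam1* from -1.04 to 0.26. The number of members called between EVP and D was 5, but 3 in edgeR and 4 with a pseudocount of 8 or no minimum mean, and 3 to 5 with libraries left out, the lowest without D replicate 2. Between EVP and TA it was 1, but 2 in DESeq2, and 0 to 1 with libraries left out, where 0 came from leaving out replicate 1 of every population. Between TA and D it was 4, but 3 under quantile normalization and in edgeR and 5 with array weights and in DESeq2, and 2 to 5 with libraries left out, the lowest without D replicate 4. The cause of these changes was not tested.

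With the replicate number as a block, 5 members were called between EVP and D, 1 between EVP and TA and 5 between TA and D, where *Madcam1* was added (adjusted p = 0.0400). Deviations of libraries with the same number correlated from -0.14 to 0.69 and above 0.1 in 11 of 15 pairs. In 12 of 15 pairs the library with the same number was the best partner, replicate 3 being the exception in each comparison, which is a hint from the data and not from the design. Since not every pair was above 0.1 and no source says what the numbers mark, they were not taken to pair the samples. *Madcam1* was at or under 3 reads in 4 EVP and 3 TA libraries, which limits any comparison of these populations.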
